A study of Mus musculus with 12 samples.

Results

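The livers of 4 E2f1 knockout mice were compared with the livers of 4 wild type mice, which are 8 of the 12 arrays of the study. The arrays were chosen by their titles alone, and each held RNA of 1 liver. Of the genes on the array, 20123 were well above background on at least 3 of the 4 arrays of either group and were tested. The remaining 4 arrays, labelled E2f2 knockout, entered the fit and so the spread behind every SE and adjusted p. Their own values were used only for E2f2 and where a direct difference from the E2f1 knockout livers is given. Wild type mice were of the mixed 129/Sv x C57BL/6 background. Of the knockout mice the labels give the genotype E2f1-/- and no strain. By the treatment protocol, mice of every genotype received diethylnitrosamine, a carcinogen that is activated in hepatocytes, as 1 intraperitoneal injection of 25 mg/kg on postnatal day 14. From weaning they ate a diet with 60% of its calories from fat for 32 weeks, and they were killed at 9 months after 4 hours without food. The whole liver was homogenised, so a smaller number of cells of a type and less RNA per cell cannot be told apart. The label field for the source of each E2f1 knockout sample names vehicle and chow, whereas their titles, descriptions, treatment and diet fields name diethylnitrosamine and the high-fat diet. This conflict is not settled by the labels, and it bears on every difference below. Neither the labels nor the file headers give the mice's sex, the hour of killing, whether the piece taken held visible tumours, or which part of E2f1 was deleted.

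E2F1 is a transcription factor that binds DNA with a DP partner and is held inactive by the retinoblastoma protein until cyclin-dependent kinases release it. Its textbook targets are genes of DNA replication, which are read late in G1, while genes of mitosis are read later through the B-MYB and FOXM1 factors and the DREAM complex at an element called the CHR. In the adult liver most hepatocytes rest outside the cycle. E2F1 has also been linked there to lipid synthesis, glucose production and the repression of oxidative genes.

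The sequences before the start sites of these cell cycle classes are shown first, because the classes behaved differently in the E2f1 knockout livers. The first set was drawn only from genes of the kinetochore, the spindle and cytokinesis that passed the test described below. It holds the 5 of these with a match to the CHR letters (TTTGAA, either strand) in the 250 bases before the start. In each line 60 bases of the RefSeq promoter table (GRCm38.p6) are printed 5′ to 3′ on the strand of the gene, and the capitals mark 1 match to the CHR letters or their reverse complement. The line of Mki67 holds a second match in lower case.
Top2a (chr11:99024190-99024249, minus strand): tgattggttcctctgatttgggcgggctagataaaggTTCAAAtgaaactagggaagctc
Ect2 (chr3:27153959-27154018, minus strand): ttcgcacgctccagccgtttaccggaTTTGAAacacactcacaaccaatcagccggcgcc
Cdc20 (chr4:118437344-118437403, minus strand): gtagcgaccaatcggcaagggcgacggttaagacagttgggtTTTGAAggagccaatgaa
Mki67 (chr7:135716444-135716503, minus strand): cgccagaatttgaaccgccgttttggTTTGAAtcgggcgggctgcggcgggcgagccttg
Ube2c (chr2:164769869-164769928, plus strand): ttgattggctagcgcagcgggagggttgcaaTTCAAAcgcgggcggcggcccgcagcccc

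The second set holds 5 of the 6 replication genes with a match to the E2F letters before the start. It was drawn from all tested replication genes, whether they passed or not, and shows those with the smallest adjusted p. These letters were TTTCCCGC, TTTCGCGC, TTTGCCGC or TTTGGCGC on either strand, and the capitals mark 1 match or its reverse complement. The line of Mcm5 holds a second match, TTTCGCGC, which overlaps the marked one and is partly in lower case.
Mcm6 (chr1:128359719-128359778, minus strand): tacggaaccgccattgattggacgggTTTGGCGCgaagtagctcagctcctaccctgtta
Mcm5 (chr8:75109334-75109393, plus strand): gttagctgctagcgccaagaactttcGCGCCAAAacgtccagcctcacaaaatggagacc
Pola1 (chrX:93632260-93632319, minus strand): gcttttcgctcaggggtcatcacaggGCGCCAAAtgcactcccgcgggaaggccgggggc
Rfc3 (chr5:151651209-151651268, minus strand): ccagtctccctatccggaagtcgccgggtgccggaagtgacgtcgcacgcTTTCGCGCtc
Mcm7 (chr5:138172015-138172074, minus strand): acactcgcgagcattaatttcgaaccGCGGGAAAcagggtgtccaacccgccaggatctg

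The 5 mitotic genes printed above all fell in the E2f1 knockout livers, by log2 differences from -1.71 for Ube2c to -2.36 for Top2a. None of the 5 replication genes passed the test, and their differences ran from -0.74 for Mcm6 to -0.15 for Mcm7. Only mitotic genes that passed the test could be printed, whereas replication genes could be printed whether they passed or not. The printed sets therefore do not compare the classes. A promoter was found for 11305 of the 20123 genes tested, as the window from 250 bases before to 50 bases after the start. Within that window the CHR letters lay in 18 of the 22 mitotic promoters (81.8%), against 12.7% of all genes tested and 18.1% of all 27025 promoters in the table. Of the 18 with the letters 15 were called lower, and Hmmr (0.22), Ndc80 (-0.53) and Spc25 (-0.61) were not. All 4 without them, Birc5, Cenpe, Mad2l1 and Nusap1, were called lower too. These 7 genes were named after their values were seen. The E2F letters lay in 0 of these 22. Among 24 promoters of replication genes the E2F letters lay in 9 (37.5%) and the CHR letters in 4 (16.7%). Over all genes tested the E2F letters lay in 3.7% of promoters, and over all promoters in the table in 2.3%. They lay in 2.7% of the promoters of genes called higher and in 3.0% of those called lower in the E2f1 knockout livers. The CHR letters lay in 12.9% of genes called higher, in 14.7% of genes called lower and in 17.7% of genes called lower at least 2-fold. A match of letters is a description of the sequence and not a measured binding site.

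**Figure D1:**
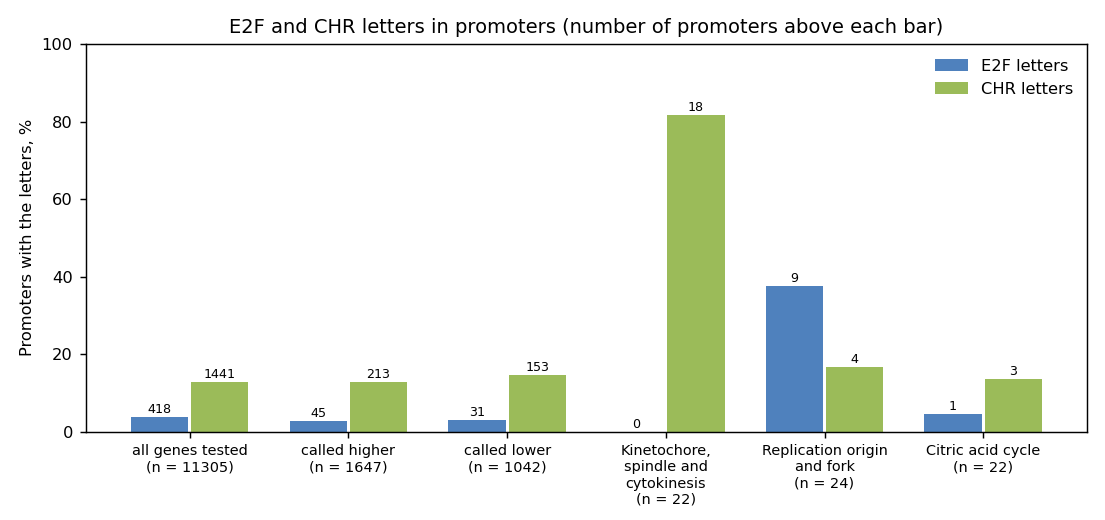
Share of promoters, in percent on the vertical axis, that hold the E2F letters (blue) or the CHR letters (green) in the window from 250 bases before to 50 bases after the start, for sets of tested genes. The number above each bar counts the promoters with the letters, and the mitotic set stands at 81.8% for CHR while the replication set stands at 37.5% for E2F.

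The targeted gene was read first. The E2f1 probe lies on chromosome 2 at positions 154385798 to 154385857 (mm9, the build of the array files). Its log2 signals, relative to the 75th percentile of each array, were -0.1, 0.32, 0.64 and 0.1 in wild type replicates 1 to 4 and -0.55, -0.72, -0.47 and -0.62 in E2f1 knockout replicates 1 to 4. The groups did not overlap, and the difference was -0.83 ± 0.19 (SE, n = 4 per group; limma adjusted p = 0.0102). The probe was well above background on all 4 knockout arrays. Whether it lies in the deleted part of the gene is not known here, and a probe outside that part checks nothing. E2f2, the closest relative of E2f1 in the group of activating E2Fs, read 0.65, 1.24, 1.16 and 0.88 in wild type and -0.03, -0.91, -0.69 and -0.48 in the knockout livers. It fell by a log2 difference of -1.51 ± 0.21 (adjusted p = 0.0013), which is larger than that of E2f1. Livers labelled E2f2 knockout did not show lower E2f2 than wild type (-0.29, adjusted p = 0.36), so they are called E2f2-labelled below. Whether the E2f2 probe lies in the deleted part of that gene is not known here either. Expression of E2f2 thus did not bear out the label of that group, but a probe outside the deleted part could not check it. E2f2 was low in the group labelled E2f1 knockout, whose E2f1 was low as well. E2f1 did not differ detectably between the E2f1 knockout and E2f2-labelled livers (-0.64 ± 0.19, limma adjusted p = 0.15). The genotypes could not be checked beyond these probes, and E2f1 knockout below means the group so labelled. The direct difference in E2f2 between E2f1 knockout and E2f2-labelled livers was -1.22 ± 0.21 (adjusted p = 0.0109).

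Limma called 4192 of the 20123 genes (20.8%) at an adjusted p under 0.05, with 2635 higher (13.1% of those tested) and 1557 lower (7.74%) in the E2f1 knockout livers. At 2-fold or more the numbers were 1003 higher (4.98%) and 1009 lower (5.01%). At 4-fold or more, 572 genes (2.84%) were called, as 218 higher (1.08%) and 354 lower (1.76%). Rises were therefore more numerous, and changes of 4-fold or more were more often falls. At 2-fold or more 2012 genes were called in all, and 1012 with normexp background correction. Among genes called higher, 108 were above background on 0 wild type arrays. Among those called lower, 139 were above background on 0 knockout arrays. Rises made up 62.9% of called genes, and all genes tested had a median difference of 0.12. Under quantile normalization the median was 0.03 and the share was 50%, and with median centring they were 0.06 and 50.6%. The 4 values of each group did not overlap in 4287 genes (21.3%), with 2850 higher (14.2%) and 1437 lower (7.14%). Replicates of the same number lay on the same slide. Within the 4 slides, between 99.1% and 99.9% of genes called higher and between 95.4% and 99.9% of genes called lower kept their direction, although these genes were chosen on the same arrays. With the slide as a replicate block 5489 genes passed, 4095 of them called without it. With normexp background correction 48 of the 141 named genes called had a difference smaller by over 1.5 times, among them genes near background in 1 group. The calls of 7 of these 141 genes ended with normexp, and their values there were -0.50 for E2f3, -0.37 for Mybl2, -0.31 for Top2a, -0.41 for Mcm2, -0.49 for Areg, -0.43 for Gpnmb and -0.17 for Tek (limma adjusted p from 0.0534 to 0.318). Without wild type replicate 2 the count was 2554, and without E2f1 knockout replicate 3 it was 2611.

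Some livers stood nearer to the other group than the rest. Wild type replicate 3 had the highest wild type value in 60.5% of the genes called higher and the lowest in 46.5% of the genes called lower. E2f1 knockout replicate 1 had the lowest knockout value in 43.5% of the genes called higher and the highest in 44.9% of those called lower. Without wild type replicate 3 the test called 4888 genes, and without E2f1 knockout replicate 1 it called 3892. Pearson's r across genes, which are not independent replicates, was 0.952 to 0.983 between wild type livers, 0.980 to 0.985 between E2f1 knockout livers and 0.932 to 0.969 between the groups. The SD within the group had a median of 0.32 in wild type and 0.28 in the knockout livers, and of 0.48 and 0.34 over the genes called lower. The 75th percentile of the signal was 107.7 to 211.7 intensity units on the 8 arrays, and 44.8% to 54.5% of probes were well above background. Precision is limited by having 4 arrays in a group.

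The genes with the largest falls were led by Gdpd3, which encodes a lysophospholipase D of lipid metabolism. Its values were 3.91, 4.1, 2.88 and 2.9 in wild type and -4.08, -3.34, -3.18 and -2.44 in the knockout livers. The difference was -6.71 ± 0.40 (adjusted p = 1.73e-06), and the probe was well above background on 2 of the 4 knockout arrays. Klrb1b, a C-type lectin receptor of natural killer cells, read 1.7, 1.5, 0.94 and 1.48 against -3.67, -2.22, -4.71 and -3.56. It fell by a log2 difference of -4.95 ± 0.43 (adjusted p = 4.69e-05), above background on 1 knockout array. Arhgap22, a Rac GTPase-activating protein, read 3.47, 3.5, 2.42 and 2.62 against -1.09, -1.51, -2.5 and -1.74, a difference of -4.71 ± 0.35 (adjusted p = 1.4e-05). In these 3 genes every wild type liver lay at least 3 log2 units above every knockout liver in the processed signal. With normexp their mean differences were smaller, at -4.32 for Gdpd3, -2.51 for Klrb1b and -3.64 for Arhgap22. Apoa4, an apolipoprotein of triglyceride-rich particles, read 8.62, 7.28, 5.62 and 7.33 against 2.41, 2.79, 2.71 and 2.52 and fell by a log2 difference of -4.61 ± 0.47 (adjusted p = 0.000199). Esm1, a proteoglycan secreted by endothelial cells, read 5.02, 4.52, 2.76 and 3.23 against 0.25, -0.03, -0.88 and -0.48, a difference of -4.17 ± 0.53 (adjusted p = 0.00077). Other large falls were in Tmc5, a transmembrane channel-like protein (-5.58), Akr1c18, an aldo-keto reductase that inactivates progesterone (-5.00), and Ly6d, a GPI-anchored surface protein (-4.93). In all 3, wild type replicate 3 was the lowest wild type liver. It read 0.69 for Tmc5 where the other wild type livers read 3.23 to 3.71. Cyp2b13, a cytochrome P450 of female mouse liver (-4.75), Tcf24, a basic helix-loop-helix factor (-4.30, and -2.11 with normexp, above background on 2 knockout arrays), and Dct, a melanin synthesis enzyme (-4.61, and -1.91 with normexp, above background on 1 knockout array), completed this group with Cdkn2b, described with the kinase inhibitors.

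Among the largest rises the most precise was Car8, a carbonic anhydrase-related protein that binds the IP3 receptor. Its values were -2.33, -2.08, -2.24 and -1.84 in wild type and 1.2, 0.93, 1.55 and 1.38 in the knockout livers, a difference of 3.39 ± 0.16 (adjusted p = 3.36e-07). Usp2, a deubiquitinase with a daily rhythm in liver, read -1.77, -0.68, 1.29 and -0.46 against 3.54, 3.88, 2.9 and 3.53 and rose by 3.87 ± 0.52 (adjusted p = 0.00106). Ces1g, a carboxylesterase that hydrolyses lipid esters, read -1.88, -2.68, 0.3 and -0.16 against 2.92, 2.2, 3.35 and 2.81 and rose by 3.92 ± 0.56 (adjusted p = 0.00134). The groups were separate in each, and wild type replicate 3 was the highest wild type liver for Usp2 and Ces1g but not for Car8. Upp2, a uridine phosphorylase of liver, rose by 3.83 ± 0.74 (adjusted p = 0.00526), with wild type values spread from -1.19 to 3.14. Inmt, an indole methyltransferase, rose by 3.87 ± 0.84 (adjusted p = 0.00858), with wild type values from 0.38 to 4.7. Several rises began near background in wild type. Cd209f, a lectin receptor of macrophages, was above background on 1 of 4 wild type arrays and rose by 5.01 ± 0.67 (adjusted p = 0.00104). The zinc finger gene Zfp874a rose by 4.45 ± 0.50 (adjusted p = 0.000369) and the matrix proteoglycan gene Omd by 3.93 ± 0.61 (adjusted p = 0.00198), each above background on 1 wild type array. The eosinophil-attracting chemokine gene Ccl24 rose by 3.42, the lectin gene Clec2h by 3.51, the channel-like gene Tmc7 by 3.5 and the monooxygenase-like gene Moxd1 by 4.56. Ccl24 and Clec2h were above background on 2 wild type arrays, and their differences were 1.70 and 1.62 with normexp. The other rises that began near background were smaller with normexp too. They were 2.04 for Cd209f, 1.82 for Zfp874a, 1.78 for Omd, 1.91 for Tmc7 and 3.06 for Moxd1.

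**Figure D2:**
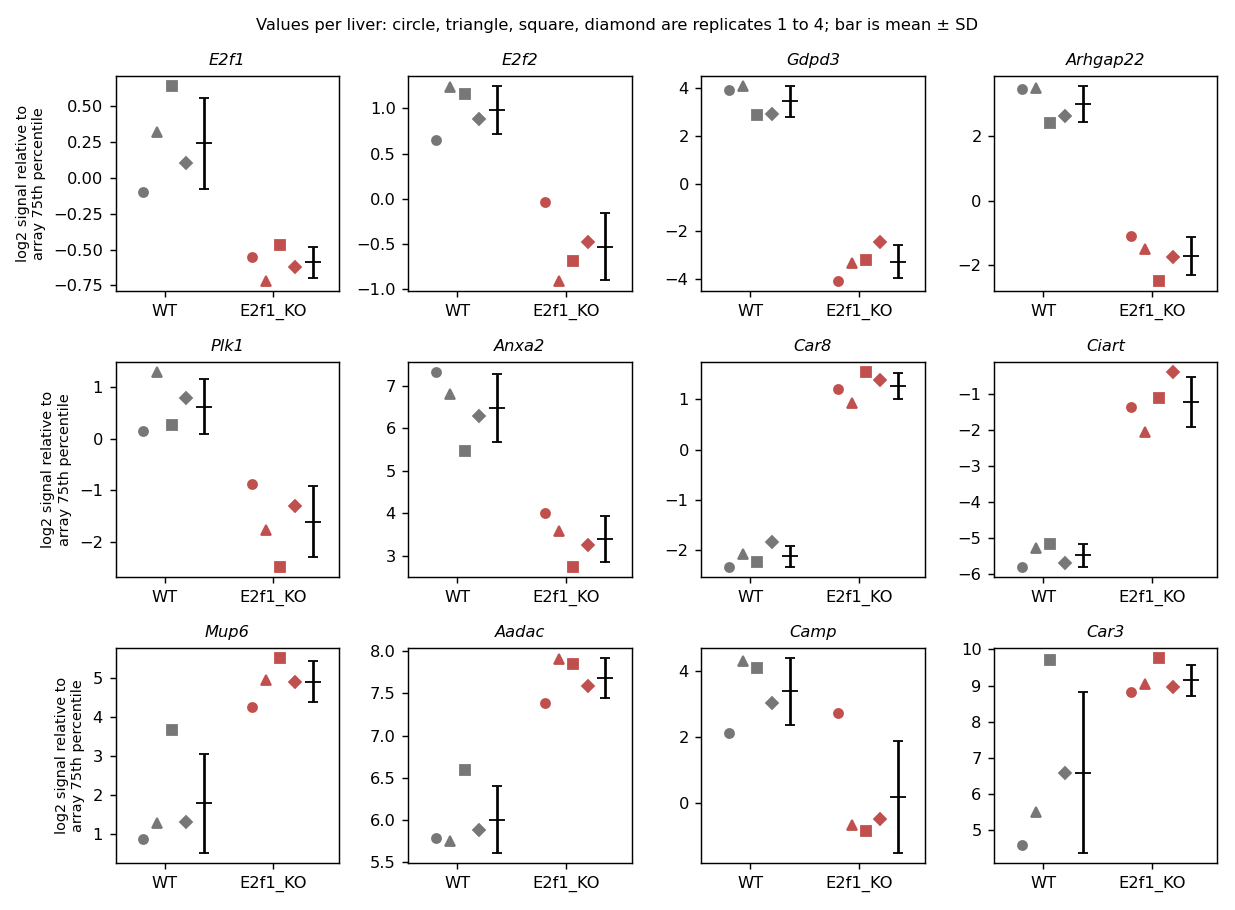
Log2 signal less the array's 75th percentile (vertical axes) for 12 genes in the 4 wild type (grey) and 4 E2f1 knockout (red) livers, with the marker shape giving the replicate number and the bar the mean ± SD. Gdpd3, Arhgap22 and Car8 separate by more than the spread of either group, while wild type replicate 3 lies nearest the knockout livers for Mup6, Aadac and Car3 and E2f1 knockout replicate 1 lies among the wild type livers for Camp.

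Genes of the kinetochore, the spindle and cytokinesis were lower in the E2f1 knockout livers, with 21 of the 26 tested members called lower and 1 called higher, against 7.74% and 13.1% of all genes. Their median difference was -1.49, from -1.98 to -0.44 within slides, and -0.59 with normexp background correction, under which 15 were called lower. Plk1, the polo-like kinase that drives entry into mitosis, read 0.14, 1.3, 0.26 and 0.79 in wild type and -0.87, -1.77, -2.49 and -1.3 in the knockout livers and fell by a log2 difference of -2.23 ± 0.33 (adjusted p = 0.00154). Cdca8, of the chromosomal passenger complex, read 0.79, 1.33, 0.83 and 0.86 against 0.22, -0.49, -0.61 and -0.61, a difference of -1.33 ± 0.21 (adjusted p = 0.0023). Ect2, which activates RhoA for cytokinesis, fell by a log2 difference of -1.90 ± 0.32 (adjusted p = 0.0029), was above background on 2 of 4 knockout arrays and stood at -0.59 with normexp. In each the knockout livers were below every wild type liver, and replicate 1 was the highest knockout liver for Plk1 and Cdca8. Top2a, the topoisomerase that untangles sister chromatids, was well above background on 0 of 4 knockout arrays and was at least 2.32-fold lower (adjusted p = 0.000876). Such a bound sets the mean of the brighter group against a floor on each dim array. The floor is the array's faintest signal from any probe well above background or, if greater, the signal of the dim probe itself. The bound holds for the processed signal only, and with normexp the log2 difference of Top2a was -0.31. Cdc20, the activator of the anaphase-promoting complex, fell by a log2 difference of -2.10 ± 0.43 (adjusted p = 0.00669), and Ube2c, the ubiquitin-conjugating enzyme of that complex, by -1.71 ± 0.41 (adjusted p = 0.0129). Mki67, the proliferation antigen, fell by -2.34 ± 0.54 (adjusted p = 0.0111). The member called higher was Spc24, of the NDC80 complex of the kinetochore (1.47 ± 0.31, adjusted p = 0.00719), and it was named after its value was seen, as were its partners. Those partners, Spc25 (-0.61) and Ndc80 (-0.53), did not pass.

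Replication genes stood near zero, with 1 of 31 members called higher, 2 called lower and a median of -0.02, a sign that changed with the setting (-0.08 to 0.07). Mcm2, a subunit of the replicative helicase, fell by a log2 difference of -0.90 ± 0.26 (adjusted p = 0.0294) and Lig1, which joins Okazaki fragments, by -0.56 ± 0.14 (adjusted p = 0.0161). The call of Lig1 was lost without wild type replicate 2 (-0.52), and that of Mcm2 without wild type replicate 1 or 2 or knockout replicate 3 or 4 (-0.86 to -0.65). Mcm10, an origin firing factor, read 1.35, 1.77, 4.53 and 1.99 in wild type and 4.88, 4.73, 5.34 and 4.74 in the knockout livers and rose by 2.51 ± 0.54 (adjusted p = 0.0081). Wild type replicate 3 lay close to the knockout livers for Mcm10 and far from the other wild type livers. Deoxynucleotide synthesis had 0 of 8 members called by limma (1 higher and 1 lower at an unadjusted p under 0.05), with Tk1, thymidine kinase, at 0.94 ± 0.31 (limma adjusted p = 0.0529) and Samhd1, a dNTP hydrolase, at -0.57 ± 0.23 (adjusted p = 0.109). Of 19 DNA repair genes 2 were called higher and 1 lower (15.8%, against 20.8% of all genes), with differences from -2.24 to 0.92. Ung, the uracil glycosylase, and Rad51c, of homologous recombination, rose by 0.92 ± 0.23 (adjusted p = 0.0155) and 0.83 ± 0.21 (adjusted p = 0.0161), the latter not without E2f1 knockout replicate 3.

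**Figure D3:**
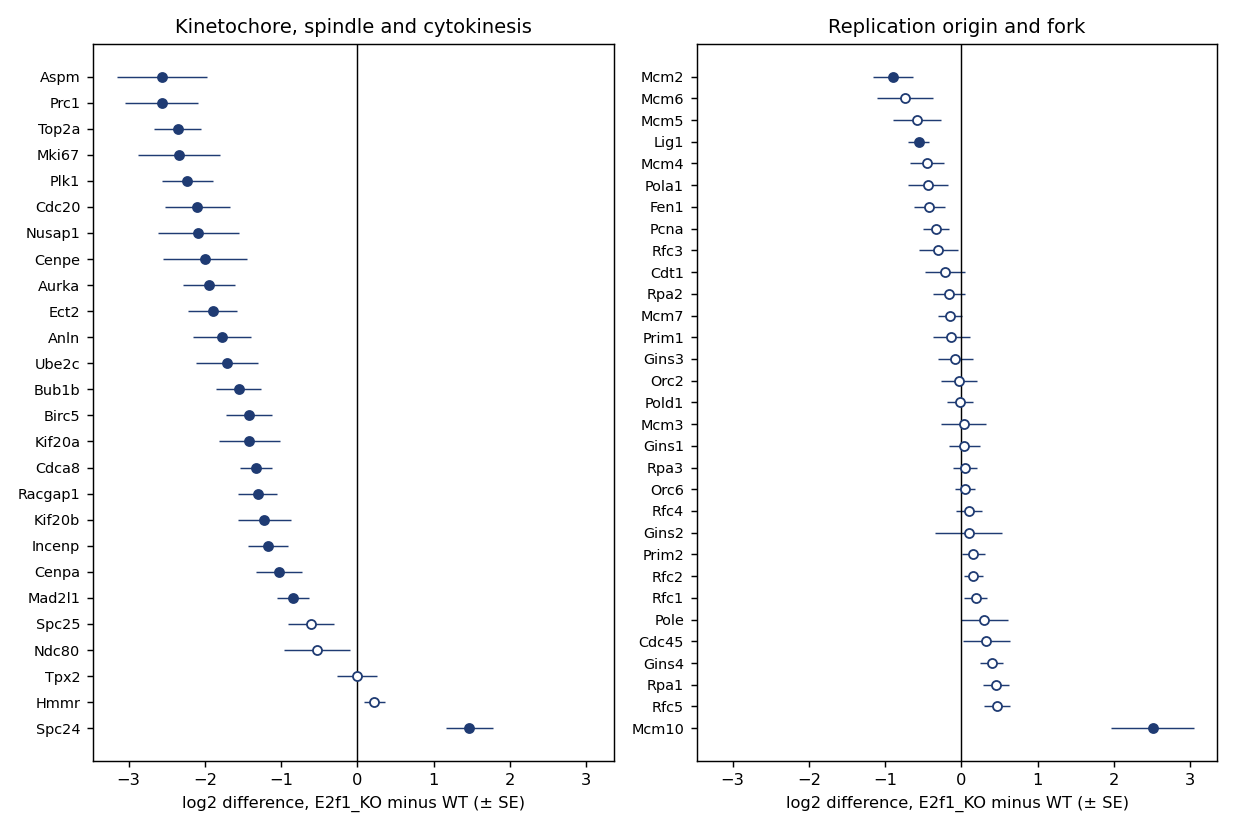
Log2 difference between E2f1 knockout and wild type livers (horizontal axes, with SE bars) for each tested gene of mitosis (left, 26 genes) and of the replication origin and fork (right, 31 genes). Filled points passed the limma test and open points did not: 21 mitotic genes lie filled below zero, against 2 replication genes.

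Of 8 E2F and DP genes tested, 3 were called lower (E2f1, E2f2 and E2f3) and 1 higher. E2f3 fell by a log2 difference of -0.63 ± 0.20 (adjusted p = 0.0404), and it did not pass when wild type replicate 1 or 2 or knockout replicate 2, 3 or 4 was left out (-0.63 to -0.50). E2f6, a repressor without a retinoblastoma-binding domain, read 1.55, 1.59, 1.52 and 1.36 in wild type and 2.31, 2.16, 2.19 and 1.99 in the knockout livers and rose by 0.66 ± 0.14 (adjusted p = 0.00843). Of the 10 tested genes of pocket proteins, the DREAM complex and its partners, Foxm1 (-1.83 ± 0.26, adjusted p = 0.00127) and Mybl2, which encodes B-MYB (-0.62 ± 0.17, adjusted p = 0.0236), were called lower. Foxm1 was above background on 2 of 4 knockout arrays, and its difference was -0.53 with normexp. Rbbp4, a histone-binding subunit of that complex, was called higher by its brightest probe (0.59), but its other probe read -0.60 and the mean of both -0.01. The calls of Rbbp4 and Mybl2 were lost when leaving out wild type replicate 2 or knockout replicate 3, and that of Mybl2 also without wild type replicate 4. Mybl2 was read by its brightest probe too, and its other probe stood at -1.93. Of 14 cyclins and cyclin-dependent kinases 4 were called lower (28.6%, against 7.74% of all genes) and 0 higher. Ccna2, which drives S and G2 phase, fell by a log2 difference of -2.28 ± 0.36 (adjusted p = 0.00215), and Ccnb1 and Ccnb2, the mitotic cyclins, by -1.81 ± 0.46 (adjusted p = 0.017) and -1.90 ± 0.34 (adjusted p = 0.00378). With normexp these falls were smaller, at -1.06 for Ccna2, -0.74 for Ccnb1 and -1.26 for Ccnb2. The call of Ccnb1 was lost when leaving out wild type replicate 2 or knockout replicate 3. Ccnf, the ubiquitin ligase cyclin F, read 1.29, 1, 1.71 and 0.41 against -0.28, -0.33, -0.25 and -1.16, a difference of -1.61 ± 0.28 (adjusted p = 0.0036).

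Inhibitors of the cycle fell too. Of 8 kinase inhibitor genes and relatives 6 were called lower and 0 higher, with a median of -1.96 (-2.96 to -1.24 within slides, and -0.86 with normexp). Cdkn2a, the locus of p16INK4A and ARF, read 2.68, 3.15, 2.4 and 1.05 in wild type and -1.52, -0.34, 0.1 and -1.32 in the knockout livers and fell by a log2 difference of -3.09 ± 0.48 (adjusted p = 0.00207). Its neighbour Cdkn2b, which encodes p15INK4B, read 4.46, 3.53, -1.92 and 1.34 against -3.02, -3.32, -3.35 and -2.28 and fell by -4.85 ± 1.04 (adjusted p = 0.00802). For Cdkn2b, but not for Cdkn2a, wild type replicate 3 read low. Cdkn2c, p18INK4C, fell by -1.90 ± 0.27 (adjusted p = 0.00133), and Cdkn3, a phosphatase of cyclin-dependent kinases, by -3.23 ± 0.39 (adjusted p = 0.000589). Cdkn3 was above background on 1 of 4 knockout arrays, and its difference was -0.81 with normexp. That of Cdkn2c was -0.91 with normexp. Of 18 targets of p53, 7 were called lower and 0 higher (4 lower without wild type replicate 2), with a median of -0.75. Phlda3, an inhibitor of AKT, fell by -3.26 ± 0.38 (adjusted p = 0.000427), Btg2, an antiproliferative cofactor, by -1.97 ± 0.35 (adjusted p = 0.00381) and Bax, a pore former of apoptosis, by -0.82 ± 0.15 (adjusted p = 0.00369). Of 17 apoptosis regulators 5 were called lower and 1 higher (35.3%, against 20.8% of all genes), and the falls were on both sides of the pathway. Pmaip1 (NOXA) and Bak1 promote apoptosis and fell by -1.77 ± 0.33 (adjusted p = 0.00469) and -0.61 ± 0.15 (adjusted p = 0.015). Bcl2 blocks it and fell by -1.02 ± 0.23 (adjusted p = 0.0103).

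Genes of liver tumours and of the fetal liver fell in 16 of 24 tested cases, none being called higher, and had a median of -2.45 (-3.81 to -1.14 within slides, and -1.59 with normexp). The list was lower in wild type replicate 3 than in the other wild type livers, with array medians of 0.81, 0.69, -1.23 and 0.15 around the wild type mean and -1.24, -2.80, -2.84 and -2.41 in E2f1 knockout livers. Wild type replicate 3 and E2f1 knockout replicate 1 were thus at the same level on this list. Without E2f1 knockout replicate 3 the calls numbered 9, and without replicate 4 they numbered 10. Tff3, a secreted trefoil peptide, read 6.54, 4.42, 4.13 and 5.95 against 2, 1.41, 0.82 and 1.96 and fell by a log2 difference of -3.71 ± 0.50 (adjusted p = 0.00106). Plagl1, an imprinted zinc finger gene, fell by -1.30 ± 0.17 (adjusted p = 0.00077) by its brightest probe, while its probes ranged from -1.30 to 0.10. Of 20 annexins and S100 proteins, calcium-binding proteins raised in many tumours, 10 were called lower and 0 higher. That count was 4 without wild type replicate 2, knockout replicate 2 or knockout replicate 4, and 5 without E2f1 knockout replicate 3. Anxa2 read 7.33, 6.81, 5.46 and 6.28 against 4, 3.6, 2.74 and 3.25 and fell by -3.07 ± 0.38 (adjusted p = 0.000693). S100g, which buffers calcium, fell by -3.76 ± 0.35 (adjusted p = 8.38e-05), was above background on 1 of 4 knockout arrays and stood at -1.72 with normexp. Among keratins, tubulins and intermediate filaments 8 of 18 were called lower and 0 higher. The falls included Tuba1b (-1.07 ± 0.21, adjusted p = 0.00508) and Stmn1, which destabilises microtubules (-1.33 ± 0.25, adjusted p = 0.00459). The other probe of Tuba1b stood at -0.3.

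Signalling genes of growth and scarring fell in part. Of 28 genes of ERK feedback, the EGF family and AP-1, 9 were called lower and 0 higher, with a median of -0.58 (-0.38 with normexp). Atf3, a stress-induced AP-1 partner, read -0.1, -0.51, 0.25 and -0.44 in wild type and -1.8, -2.04, -2.82 and -2.81 in the knockout livers, a difference of -2.17 ± 0.30 (adjusted p = 0.00127). Spry2, a feedback inhibitor of ERK, was at least 2.68-fold lower (adjusted p = 0.0013), and Areg, the EGF receptor ligand amphiregulin, at least 1.82-fold lower (adjusted p = 0.00219). With normexp the log2 differences were smaller, at -0.99 for Atf3, -0.46 for Spry2 and -0.49 for Areg. Of 25 TGF-beta and BMP genes 8 were called lower and 1 higher, and the count of falls was 5 without wild type replicate 1, knockout replicate 1 or knockout replicate 4. Tgfbr2, the type II TGF-beta receptor, read 3.67, 3.74, 2.75 and 3.05 against 1.41, 1.36, 0.83 and 0.8 and fell by -2.20 ± 0.28 (adjusted p = 0.000742). Its ligand gene Tgfb1 fell by -1.15 ± 0.22 (adjusted p = 0.00532). Collagens and basement membrane genes went both ways, with 11 of 26 called lower and 5 higher, and the falls numbered 5 without E2f1 knockout replicate 3 or replicate 4. The rises numbered 3 without wild type replicate 2 and 2 without E2f1 knockout replicate 3. Nid1, which links laminin to type IV collagen, fell by -3.07 ± 0.46 (adjusted p = 0.00177), and the type IV collagen genes Col4a1 and Col4a2 by -1.42 ± 0.27 (adjusted p = 0.0051) and -1.25 ± 0.23 (adjusted p = 0.00433). Of 12 tested markers of stellate cells and myofibroblasts 2 were called lower (16.7%, against 7.74% of all genes), with a median of -0.01. They were Rgs5 (-0.76 ± 0.19, adjusted p = 0.0156) and Pdgfrb (-0.62 ± 0.19, adjusted p = 0.0359). The call of Pdgfrb was lost without wild type replicate 1, 3 or 4 and without E2f1 knockout replicate 2, 3 or 4.

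**Figure D4:**
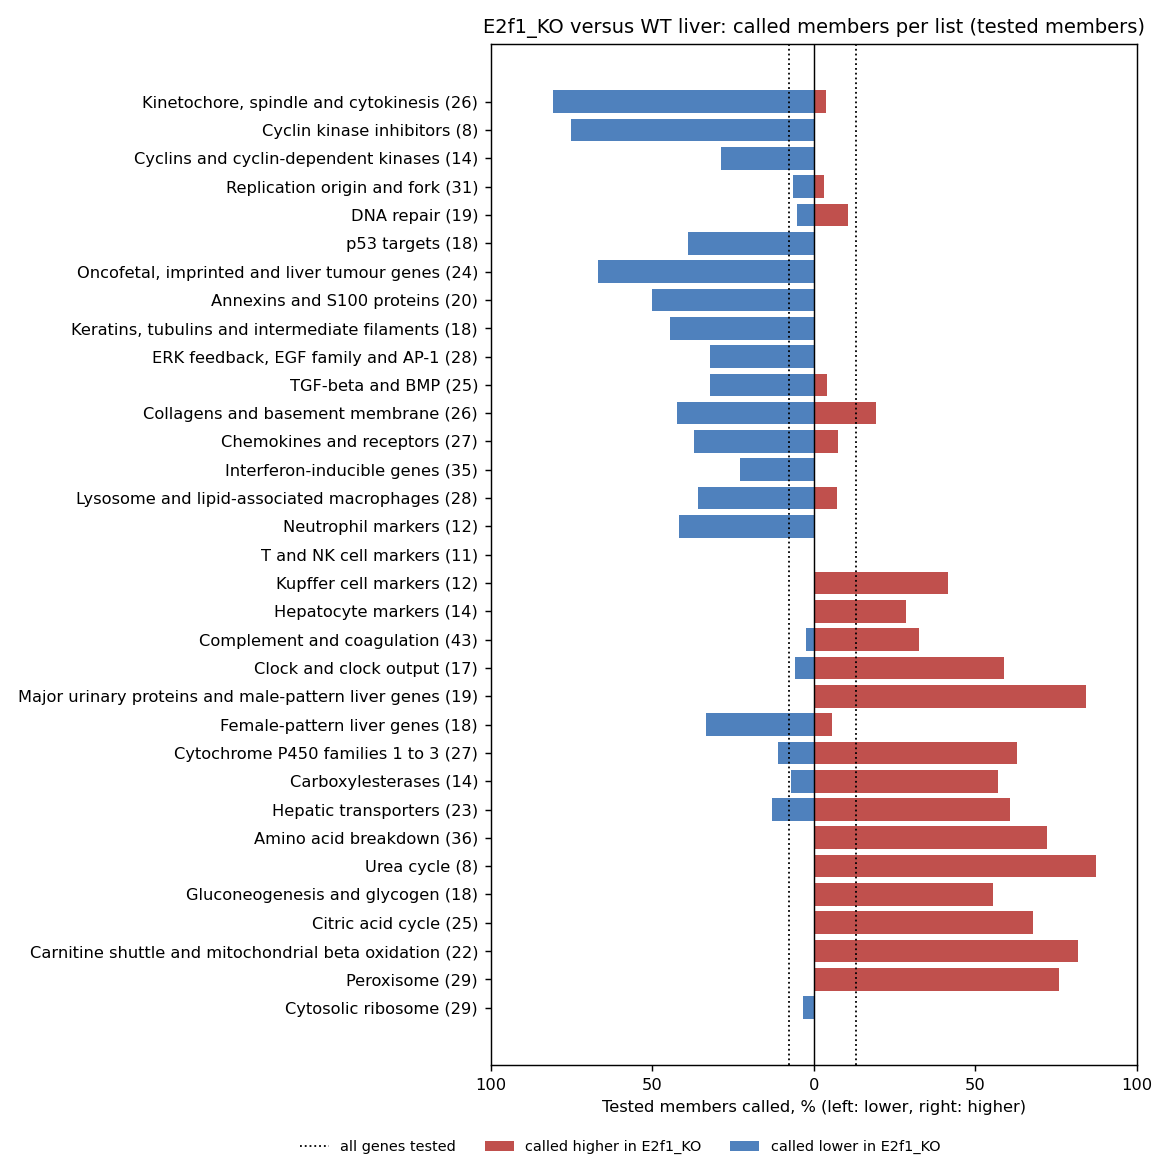
Percent of the tested members of each list that were called lower (blue, to the left) or higher (red, to the right) in E2f1 knockout livers, with the number tested in brackets and dotted lines at the 7.74% lower and 13.1% higher of all genes. Lists of mitosis and tumour genes lie to the left, lists of metabolism, male-pattern and clock genes to the right, and replication and cytosolic ribosome genes near zero.

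The immune genes differed by cell type. Kupffer cell markers had 5 of 12 members called higher and 0 lower, with a median of 1.61 (0.13 to 2.23 within slides, and 1.07 with normexp), and 8 were called higher without wild type replicate 3. Fcna, ficolin A, read 0.69, 1.16, 1.71 and 1.42 in wild type and 2.23, 2.57, 2.9 and 2.56 in the knockout livers and rose by 1.32 ± 0.25 (adjusted p = 0.00497). Clec4f, a lectin of Kupffer cells, rose by 1.86 ± 0.41 (adjusted p = 0.00886), with wild type replicate 1 lowest at 2.37. C6 is on this list and is also a complement gene of hepatocytes, and it rose by 1.61 ± 0.28 (adjusted p = 0.00336). Itgax, the integrin CD11c of macrophages and dendritic cells, read 1.66, 3.1, 4.51 and 1.47 against -0.23, -0.73, -0.33 and -0.53, a difference of -3.14 ± 0.54 (adjusted p = 0.00326). Gpnmb, a glycoprotein of lipid-laden macrophages, was at least 2.65-fold lower (adjusted p = 0.00227), and its log2 difference was -0.43 with normexp. Of 28 lysosome and lipid-associated macrophage genes 10 were called lower and 2 higher (6 lower without wild type replicate 2 or knockout replicates 2 or 4). Npc1, the lysosomal cholesterol exporter, was among those higher (1.09 ± 0.18, adjusted p = 0.00247).

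Chemokines and their receptors were called lower in 10 of 27 cases and higher in 2, and 6 were lower without E2f1 knockout replicate 3. Ccl4 read 0.48, 1.25, 2.75 and 1.63 against -1.37, -2.01, -1.74 and -1.24 and fell by a log2 difference of -3.12 ± 0.40 (adjusted p = 0.000896). Its relative Ccl3, which also attracts monocytes, fell by -2.54 ± 0.46 (adjusted p = 0.00389). Of 35 interferon-inducible genes 8 were called lower (22.9%, against 7.74% of all genes) and 0 higher. The falls numbered 14 without E2f1 knockout replicate 1, 5 without replicate 3, 15 with quantile normalization and 13 with the replicate block. Oas1a, an antiviral RNA sensor, fell by -1.55 ± 0.25 (adjusted p = 0.00247), and Isg15, a ubiquitin-like modifier, by -1.15 ± 0.19 (adjusted p = 0.00272). Camp, cathelicidin of neutrophil granules, read 2.1, 4.3, 4.1 and 3.02 in wild type and 2.72, -0.68, -0.86 and -0.49 in the knockout livers. Ltf, lactoferrin, read 0.27, 2.35, 1.97 and 0.87 against 0.61, -3.7, -3.76 and -3.75, above background on 2 of 4 knockout arrays. Knockout replicate 1 was within the wild type range for both genes, and the other knockout livers were below it. Of the 12 markers 5 were called lower, 8 with the replicate block and 7 without knockout replicate 1, with 2 called lower without wild type replicate 3 or 4, and 0 by limma without wild type replicate 2 or knockout replicate 2, 3 or 4. T and NK cell markers had 0 of 11 members called by limma (2 lower at an unadjusted p under 0.05, and 2 called without wild type replicate 2), at a median of -0.41, with Lck at -0.66 ± 0.26 (limma adjusted p = 0.0934) and Cd3d at -0.77 ± 0.32 (adjusted p = 0.108). The part of the immune cells in the falls of chemokine, interferon and macrophage genes was not tested.

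Of 14 sinusoidal endothelial genes 2 were called lower (14.3%, against 7.74% of all genes) and 0 higher, with a median of -0.48 (-0.27 with normexp). At an unadjusted p under 0.05, 9 were lower and 0 higher, and 5 were called lower with quantile normalization and 4 with the replicate block. The count was 1 without wild type replicate 1 or 2 or knockout replicate 4. Lyve1, a hyaluronan receptor, read 1.56, 1.5, 0.77 and 0.64 in wild type and -2.04, -1.1, -2.02 and -2.02 in the knockout livers and fell by -2.92 ± 0.27 (adjusted p = 8.34e-05). Tek, the angiopoietin receptor, fell by -1.25 ± 0.35 (adjusted p = 0.0263), and did not pass when wild type replicate 1 or 2 or knockout replicate 2 or 4 was left out. It was above background on 3 wild type and 2 knockout arrays and did not pass with normexp (-0.17, adjusted p = 0.318). Outside this list, Gpihbp1, which carries lipoprotein lipase across capillary endothelium, fell by -0.83 ± 0.17 (adjusted p = 0.00709). Lpl, that lipase and also not on this list, fell by -2.57 ± 0.38 (adjusted p = 0.00157). Cholangiocyte markers were called lower in 3 of 7 cases and higher in 0, and in 1 case without wild type replicate 1, 2 or 4 or knockout replicate 3 or 4. Prom1, a progenitor marker, read 2.3, 1.77, -1.5 and 2.23 against -0.82, -0.88, -1.93 and -1.04. Wild type replicate 3 was again at the level of the knockout livers, and the call of Prom1 was lost when leaving out wild type replicate 1, 2 or 4 or knockout replicate 3 or 4.

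Genes of hepatocyte metabolism were higher in the E2f1 knockout livers across several pathways. Of 25 genes of the citric acid cycle 17 were called higher and 0 lower, with a median of 0.69 and a narrow range within slides (0.57 to 0.80). Fh1, fumarase, read 5.07, 5.21, 5.3 and 5.29 in wild type and 6.14, 6.43, 6.52 and 6.54 in the knockout livers and rose by 1.19 ± 0.14 (adjusted p = 0.000381). Mdh1, the cytosolic malate dehydrogenase of the malate shuttle, rose by 1.10 ± 0.16 (adjusted p = 0.00156). The spread of these genes was small in both groups, and the groups did not overlap. Genes of the carnitine shuttle and beta oxidation were called higher in 18 of 22 cases and lower in 0, with a median of 0.81. Cpt2, carnitine palmitoyltransferase 2 of the inner mitochondrial membrane, read 4.24, 4.27, 5.35 and 4.59 against 5.71, 6.07, 6.16 and 5.82 and rose by 1.33 ± 0.24 (adjusted p = 0.00405). Acaa2, the last enzyme of the spiral, rose by 1.06 ± 0.18 (adjusted p = 0.00332), and Etfdh, which passes its electrons to ubiquinone, by 1.02 ± 0.19 (adjusted p = 0.00424). Peroxisome genes were called higher in 22 of 29 cases and lower in 0, with a median of 0.83. Pex13, of the import machinery, rose by 0.76 ± 0.14 (adjusted p = 0.00445).

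The size of these counts depended on single livers and on the scaling. Without wild type replicate 2 they were 11 for the citric acid cycle and 11 for beta oxidation, and without E2f1 knockout replicate 3 the citric acid cycle count was 11. With quantile normalization they were 9, 13 and 16 for the citric acid cycle, beta oxidation and peroxisome, and with median centring 8, 12 and 15. Mitochondrial ribosome genes were called higher in 15 of 30 cases, with a median of 0.47. That count was 23 with the replicate block, 9 with normexp, 7 with quantile normalization, 1 with median centring, 5 without wild type replicate 2, 4 without wild type replicate 4, and 6, 4 and 7 without E2f1 knockout replicates 2, 3 and 4. Proteasome genes were called higher in 13 of 30 cases with a median of 0.45. That count was 25 with the replicate block, 7 with normexp, 1 with quantile normalization, 0 with median centring, 7, 3 and 3 without wild type replicates 1, 2 and 4, and 5, 3 and 7 without E2f1 knockout replicates 2, 3 and 4. Ketogenesis genes were called higher in 3 of 6 cases, in 0 by limma with quantile normalization or median centring, and in 1 without wild type replicate 1 or 2 or knockout replicate 2 or 3. Genes of mitochondrial import and biogenesis were called higher in 10 of 27 cases and lower in 0. That count was 5 with median centring or without wild type replicate 2. The regulator Ppargc1b, a coactivator of mitochondrial genes, rose by 2.17 ± 0.32 (adjusted p = 0.00157) from -3, -2.79, -1.79 and -2.25 to -0.63, -0.27, -0.21 and -0.03. It was above background on 3 of 4 wild type arrays, and its rise was 1.05 with normexp. Tomm22, a receptor of the outer membrane import pore, rose by 1.36 ± 0.20 (adjusted p = 0.00161). Cytosolic ribosome genes had 0 of 29 members called higher and 1 lower, at a median of -0.12, and 5 lower with quantile normalization.

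Of 16 desaturases and elongases 3 were called lower and 1 higher (25%, against 20.8% of all genes). Scd1, the main desaturase of liver, read 6.42, 5.38, 5.97 and 6.82 in wild type and 5.22, 2.25, 3.98 and 5.01 in the knockout livers and fell by a log2 difference of -2.03 ± 0.54 (adjusted p = 0.02), and did not pass when wild type replicate 4 or knockout replicate 3 was left out. Scd2, its relative in other tissues, fell by -3.84 ± 0.43 (adjusted p = 0.000372), and Elovl7, an elongase, by -4.11 ± 0.67 (adjusted p = 0.0025). Of 22 genes of sphingolipid synthesis 5 were called lower and 1 higher (27.3%, against 20.8% of all genes). The falls numbered 1 without wild type replicate 2, 2 without E2f1 knockout replicate 3 and 8 with quantile normalization. Ugcg, glucosylceramide synthase, read 0.83, 0.79, 0.57 and 0.79 against 0.04, 0, -0.43 and -0.58, a difference of -0.99 ± 0.21 (adjusted p = 0.00783). Among 16 eicosanoid genes 4 were called higher and 2 lower (37.5%, against 20.8% of all genes). Alox5, which starts leukotriene synthesis, fell by -3.49 ± 0.56 (adjusted p = 0.00247), with 1 of 4 knockout arrays above background and -0.94 with normexp, while Ephx2, the soluble epoxide hydrolase, rose by 1.77 ± 0.34 (adjusted p = 0.00519) and Ptgds, a prostaglandin D2 synthase, by 2.91 ± 0.51 (adjusted p = 0.00338).

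Enzymes of drug and ester metabolism were among the largest shifts. Cytochrome P450 genes of families 1 to 3 were called higher in 17 of 27 cases and lower in 3, with a median of 1.32 (0.79 to 2.05 within slides). Cyp2d9, a steroid hydroxylase of male mice, read 3.55, 3.21, 4.94 and 3.21 in wild type and 6.08, 6.13, 6.81 and 5.99 in the knockout livers and rose by 2.53 ± 0.35 (adjusted p = 0.00127). Cyp2f2, a periportal enzyme, rose by 2.37 ± 0.44 (adjusted p = 0.00432). Carboxylesterases were called higher in 8 of 14 cases and lower in 1, with a median of 1.39. Ces1c, a plasma esterase of mice, rose by 1.79 ± 0.27 (adjusted p = 0.00166) and Ces3b, a hepatic esterase, by 2.54 ± 0.47 (adjusted p = 0.00444). Aadac, arylacetamide deacetylase, read 5.78, 5.75, 6.59 and 5.88 against 7.39, 7.91, 7.85 and 7.59 and rose by 1.68 ± 0.20 (adjusted p = 0.000597). For Cyp2d9 and Aadac wild type replicate 3 stood above the other wild type livers and below all knockout livers. Conjugating enzymes were called higher in 15 of 30 cases and lower in 1, among them Ugt2a3, a glucuronosyltransferase (1.53 ± 0.27, adjusted p = 0.00325), and Gsta3, a glutathione transferase (1.64 ± 0.29, adjusted p = 0.00391). Hepatic transporters were called higher in 14 of 23 cases and lower in 3. The falls included Abcb1a and Abcb1b, the P-glycoprotein drug pumps, at -2.30 ± 0.34 (adjusted p = 0.00154) and -1.84 ± 0.22 (adjusted p = 0.000589). Abcc6, a liver transporter whose loss causes calcification, rose by 2.25 ± 0.38 (adjusted p = 0.00302), and Slc47a1, an exporter of organic cations, by 1.36 ± 0.23 (adjusted p = 0.00285).

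Nitrogen and glucose metabolism moved with them. Amino acid breakdown genes were called higher in 26 of 36 cases and lower in 0, with a median of 0.96 (0.85 to 1.04 within slides), and in 17 without wild type replicate 2, without E2f1 knockout replicate 3 or with quantile normalization. Hgd, homogentisate dioxygenase of tyrosine breakdown, read 2.56, 2.36, 2.93 and 2.91 in wild type and 4.18, 4.18, 5.08 and 4.61 in the knockout livers and rose by 1.83 ± 0.23 (adjusted p = 0.000835). Aass, which starts lysine breakdown, rose by 1.80 ± 0.29 (adjusted p = 0.00238), and Tdo2, which starts tryptophan breakdown, by 1.06 ± 0.18 (adjusted p = 0.00285). Urea cycle genes were called higher in 7 of 8 cases, with a median of 1.2, and Asl, argininosuccinate lyase, read 3.66, 3.22, 4.38 and 4.29 against 5.07, 5.38, 6.38 and 6.24, a rise of 1.88 ± 0.33 (adjusted p = 0.00344). Genes of gluconeogenesis and glycogen were called higher in 10 of 18 cases and lower in 0 (5 without wild type replicate 2, 6 without E2f1 knockout replicate 3 or 4, and 6 with quantile normalization). Gys2, the liver glycogen synthase, rose by 1.43 ± 0.20 (adjusted p = 0.0013), and Slc37a4, the glucose 6-phosphate transporter of the endoplasmic reticulum, by 1.32 ± 0.21 (adjusted p = 0.00249). Of 19 glycolytic isoforms used outside the liver and in tumours 6 were called lower and 0 higher. G6pdx, which feeds the pentose phosphate pathway, read 1.76, 2.82, 2.36 and 2.65 against 1.12, 1.04, 1.01 and 0.94 and fell by -1.37 ± 0.25 (adjusted p = 0.00405). Slc16a3, a lactate exporter, fell by -1.66 ± 0.30 (adjusted p = 0.00424).

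Genes with a sex difference in liver and genes of the daily clock moved as well. Major urinary protein and other male-pattern genes were called higher in 16 of 19 cases and lower in 0, with a median of 2.02 (0.68 to 2.71 within slides). Their array medians around the wild type mean were -0.69, -0.23, 1.63 and -0.52 in wild type and 1.78, 2.31, 2.03 and 2.17 in the knockout livers. On this list wild type replicate 3 was close to the knockout livers, and the within-slide median of 0.68 was far under the others. Mup6 read 0.88, 1.27, 3.68 and 1.31 against 4.26, 4.95, 5.53 and 4.91 and rose by 3.13 ± 0.52 (adjusted p = 0.00275). Female-pattern genes were called lower in 6 of 18 cases and higher in 1, and the falls numbered 3 without wild type replicate 1, wild type replicate 4 or knockout replicate 3. Slc22a27, an organic anion transporter, read 0.64, -0.65, -0.23 and 1.27 against -1.72, -4.63, -2.5 and -2.03, a difference of -2.97 ± 0.57 (adjusted p = 0.00484). In the growth hormone and IGF axis 6 of 23 genes were called higher and 4 lower, with 2 lower without wild type replicate 1, 2 or 4 or knockout replicate 2 or 3. Igfbp2, an IGF-binding protein, rose by 2.43 ± 0.34 (adjusted p = 0.00127), Ghr, the growth hormone receptor, by 1.71 ± 0.39 (adjusted p = 0.0104), and Onecut1, a liver factor driven by growth hormone, fell by -1.51 ± 0.36 (adjusted p = 0.0125). The labels do not state each mouse's sex, whose part in these genes was not tested.

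Clock genes and their outputs were called higher in 10 of 17 cases and lower in 1, with a median of 1.43 (0.51 to 1.67 within slides). Ciart, a repressor of the CLOCK and BMAL1 pair, was well above background on 0 of 4 wild type and on 4 of 4 E2f1 knockout arrays. It was at least 4.89-fold higher in the processed signal (adjusted p = 8.38e-05). With normexp its log2 difference was 1.19, which is smaller than that bound. Per2, a core repressor, read -2.94, -2.76, -2.34 and -2.57 in wild type and -0.78, -0.3, -1.05 and -0.97 in the knockout livers. It rose by 1.88 ± 0.24 (adjusted p = 0.00077), and by 0.91 with normexp. Tef, an output factor that binds D-box elements, read 3.84, 4.19, 5.9 and 4.96 against 7.02, 7.03, 6.88 and 6.93 and rose by 2.25 ± 0.36 (adjusted p = 0.00227). The knockout livers were within 0.15 log2 units of each other for Tef, while the wild type livers spread over 2.06. The E-box letters (CACGTG, the same on both strands), which the CLOCK and BMAL1 pair recognises, lay in 4 of 14 promoters of this list (28.6%), against 9.8% of all genes tested and 7.2% of all promoters in the table. The labels do not state the hour of killing, whose part in the clock genes was not tested.

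**Figure D5:**
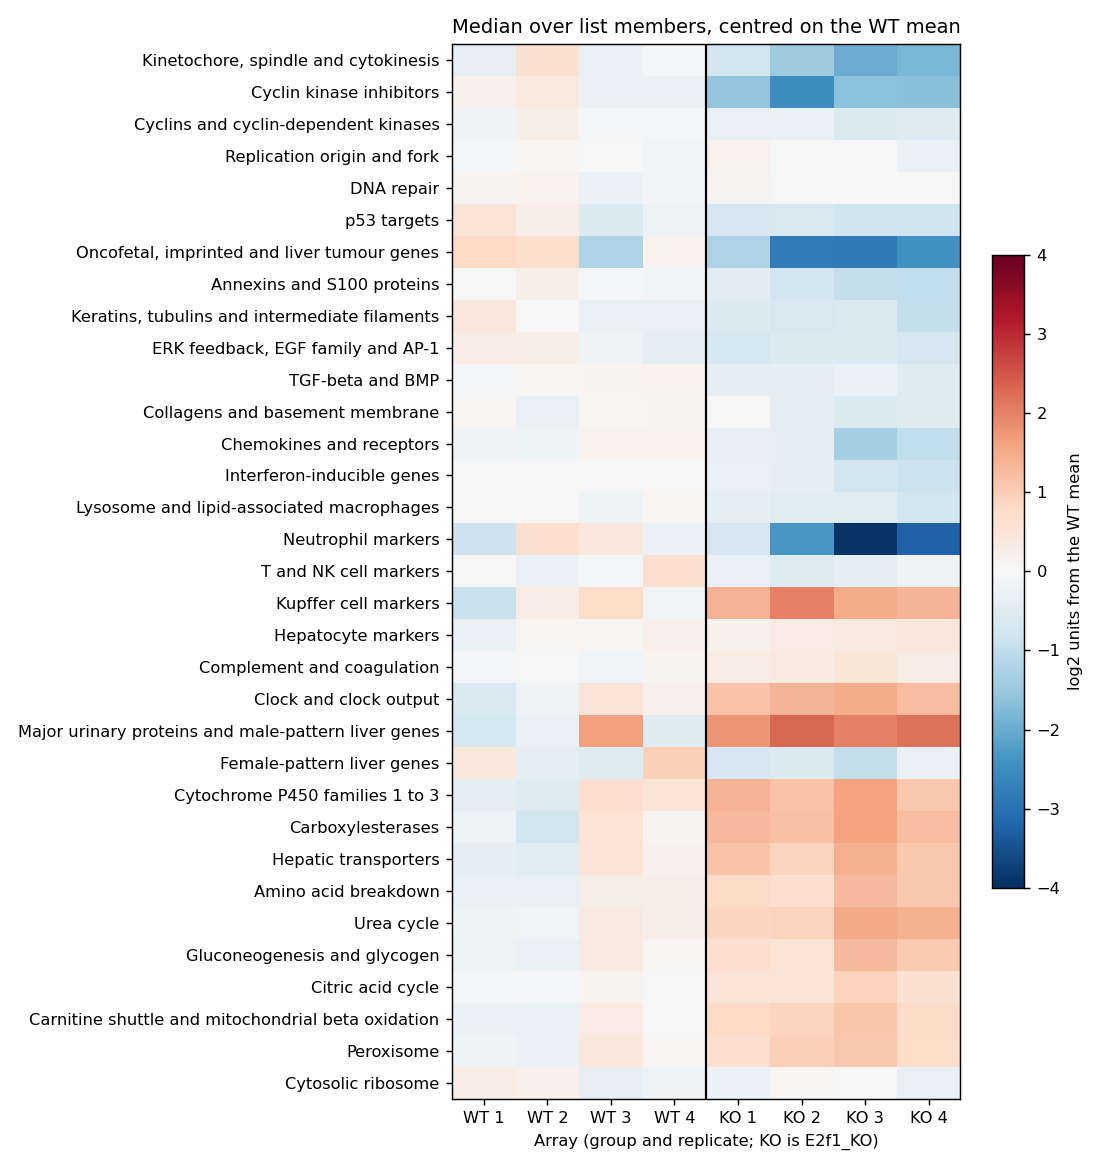
Median over the tested members of each list (rows) on each of the 8 arrays (columns), in log2 units from the mean of the wild type arrays, with red above and blue below it. Wild type replicate 3 shares its colour with the knockout livers for tumour genes (-1.23) and male-pattern genes (1.63), and E2f1 knockout replicate 1 is paler than the other knockout livers for neutrophil markers (-0.67 against -2.33 to -3.92).

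Secreted proteins and identity factors of hepatocytes shifted less. Complement and coagulation genes were called higher in 14 of 43 cases and lower in 1, with a median of 0.43 (0.11 with quantile normalization), and in 9 without wild type replicate 2 or knockout replicate 3. C8b, of the membrane attack complex, read 4.11, 4.09, 5.15 and 4.14 in wild type and 6.08, 6.74, 6.59 and 5.95 in the knockout livers and rose by 1.97 ± 0.25 (adjusted p = 0.000835). Hepatocyte markers were called higher in 4 of 14 cases (28.6%, against 13.1% of all genes) and lower in 0. Their median of 0.26 turned to -0.01 with quantile normalization. Hnf4a, the factor that maintains hepatocyte identity, rose by 0.67 ± 0.14 (adjusted p = 0.0079), and Asgr2, a subunit of the asialoglycoprotein receptor, by 1.03 ± 0.16 (adjusted p = 0.00227). Among 35 hepatocyte transcription factors and nuclear receptors 10 were called higher and 1 lower (31.4%, against 20.8% of all genes). Nr1i2, the pregnane X receptor, rose by 1.06 ± 0.20 (adjusted p = 0.00447), Thrb, a thyroid hormone receptor, by 0.95 ± 0.15 (adjusted p = 0.00213), and Nr1d2, the heme receptor REV-ERB beta, by 1.46 ± 0.23 (adjusted p = 0.00207). Of 23 iron and heme genes 5 were called higher and 2 lower (30.4%, against 20.8% of all genes). The rises numbered 2 with quantile normalization, 2 without wild type replicate 1 or 2, and 3 without wild type replicate 4 or any 1 of the knockout livers. Alas1, which starts heme synthesis, rose by 1.88 ± 0.34 (adjusted p = 0.00413), Ftl1, ferritin light chain, by 1.55 ± 0.35 (adjusted p = 0.0103), and Tfrc, the transferrin receptor, fell by -1.17 ± 0.26 (adjusted p = 0.00874).

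The E2f1 knockout livers were also set directly against the E2f2-labelled livers, to see which of the genes above differed between them. This comparison shares the E2f1 knockout arrays with the one above. It called 303 of 20123 genes (1.51%), with 155 higher (0.770%) and 148 lower (0.735%) in E2f1 knockout livers. Of the genes on the lists, 25 of 1316 tested were called, and 151 genes were called in both comparisons. Car8 was higher than in E2f2-labelled livers by 2.93 (adjusted p = 1.06e-06), Ces1g by 3.75 (adjusted p = 0.00381) and Tmc7 by 4.09 (adjusted p = 0.0024). Dct was lower by a log2 difference of -7.69 (adjusted p = 0.000169, with 1 of 4 E2f1 knockout arrays above background), Tmc5 by -4.60 (adjusted p = 0.00163) and Ccnf by -2.46 (adjusted p = 0.000592). Stmn1 and Slc22a27, lower than in wild type, were higher than in E2f2-labelled livers by 2.05 (adjusted p = 0.000896) and 2.97 (adjusted p = 0.0191). Nr1d2, higher than in wild type, was lower than in E2f2-labelled livers by -1.06 (adjusted p = 0.0399). For Gdpd3, Apoa4, Plk1 and Mup6 the direct difference did not pass, which does not show that these groups are alike.

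Position on the genome was described last, because a knockout allele carries flanking sequence of the strain it was made in. Within 10 Mb of E2f1 on chromosome 2, 245 genes were tested, and 39 were called higher and 26 lower (26.5%, against 20.8% of all genes). Within 1 Mb these numbers were 3 and 2 of 31 (16.1%). Over the autosomes between 10.9% and 15% of genes were called higher and between 5.98% and 9.99% lower. On the X chromosome 9.9% were called higher and 8.32% lower.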

How the data were processed

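Total RNA of 12 livers was hybridised to Agilent 1-colour arrays. The deposited files hold spot intensity values from Agilent Feature Extraction 10.7.3.1, per the file headers, with the background already subtracted in the processed signal. The deposited value table is on a log2 scale, which was found by setting it against the scanner values (r of 0.9981 to 0.9999, each column's median 3.84). No source used here gives its centring, and it served as an alternative. From each array's log2 processed signal its 75th percentile was subtracted. Control spots and outlier flags were dropped, and repeated spots of a probe were averaged. Of 55681 probes, 28354 were named by accession, 3189 by symbol and 271 by synonym through the RefSeq table, and 23867 kept the file's name. A gene was tested where a probe was well above background on 3 of the 4 arrays of either group, through its brightest such probe.

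Groups were compared with limma 3.58.1 (lmFit and eBayes) in R 4.3.3, in 1 fit of all 12 arrays with 9 residual degrees of freedom. Genes with a Benjamini-Hochberg adjusted p under 0.05 over all genes tested are called. Each mouse gave 1 array, and 4 per group limit the precision. Named genes are E2f1, E2f2, Cpt2, 12 rises and 12 falls of the greatest size without overlap between groups, and members of each list with the smallest adjusted p. Genes with printed promoters were named for their letters and their test results. The mitotic set required a call, and both sets were ordered by adjusted p. Some genes that meet this rule are not reported here. The members of the comparison and the 69 lists were chosen with earlier results of these data known, so list counts are descriptions, and 58 genes are on more than 1 list. The CHR and E-box letters were added after the data were seen. The procedure was tested on simulated data, and 20 alternatives were computed. Replicates of the same number shared a slide, and each group kept its position on the slides, so the effects of group and of position cannot be told apart.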

Additional observations from a re-analysis of the deposited data

Results flagged for a closer look

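In 27 of 444 groups of 4 livers, 1 liver stood so far from the other three that its gap exceeded Dixon's critical ratio of 0.829, and chance alone gives this in about 1 in 20 groups. They comprised 22 values of named genes and 5 list medians, all on the log2 scale. In wild type replicate 2 these were Cdkn3 (-0.57, the others -1.57 to -1.45) and Cdca8 (1.33, the others 0.79 to 0.86). In wild type replicate 3 these were Tmc5 (0.69, the others 3.23 to 3.71), Rbbp4 (4.15, the others 3.74 to 3.79), Ugcg (0.57, the others 0.79 to 0.83), Alox5 (-2.52, the others -0.85 to -0.68), Aadac (6.59, the others 5.75 to 5.88), Mup6 (3.68, the others 0.88 to 1.31), C8b (5.15, the others 4.09 to 4.14) and Prom1 (-1.5, the others 1.77 to 2.30). In wild type replicate 4 this was Cd209f (-2.75, the others -5.24 to -5.01). In E2f1 knockout replicate 1 these were Cdca8 (0.22, the others -0.61 to -0.49), Aass (6.30, the others 6.81 to 6.86), Ftl1 (9.87, the others 10.45 to 10.55), Camp (2.72, the others -0.86 to -0.49) and Ltf (0.61, the others -3.76 to -3.70). In E2f1 knockout replicate 2 this was Lyve1 (-1.10, the others -2.04 to -2.02). In E2f1 knockout replicate 3 these were Omd (1.19, the others 0.20 to 0.34), Cyp2b13 (-4.18, the others -2.22 to -2.16), Etfdh (5.68, the others 5.09 to 5.14) and Slc47a1 (2.37, the others 2.06 to 2.07). In E2f1 knockout replicate 4 this was Ccnf (-1.16, the others -0.33 to -0.25). Among list medians relative to the wild type mean, cyclin kinase inhibitors stood apart in E2f1 knockout replicate 2 (-2.49), deoxynucleotide synthesis stood apart in E2f1 knockout replicate 3 (0.21), iron and heme stood apart in wild type replicate 1 (-0.34), heat shock and chaperones stood apart in wild type replicate 4 (-0.20) and sinusoidal endothelial markers in wild type replicate 3 (0.06).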

How the results depend on the processing

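Of the 141 named genes called in E2f1 knockout livers, 121 were called under every one of the 20 alternatives in which they were tested, and 56 of 69 list medians kept their sign. The values that turned were Rfc3 (0.02) and Ndc80 (0.00), both uncalled, with normexp background correction, and Rbbp4 (-0.01) with the mean of all probes. The cause was not tested. Median centring called 1550 genes higher. With no filter on dim probes, 34599 genes were tested and 2686 called, 1628 of them higher. Array weights gave 486 calls against E2f2-labelled livers. Leaving out 1 array gave 2554 to 4888 genes called, 1565 to 3016 higher, 961 to 1872 lower, 358 to 607 listed genes (547 with all arrays), 130 to 143 named genes and 214 to 343 genes against E2f2-labelled livers. The low ends came without wild type replicate 2 (2554, with 1593 higher, 961 lower and 359 listed) and without E2f1 knockout replicate 3 (2611, with 1565 higher and 358 listed), and 1032 were lower without E2f1 knockout replicate 4. With the replicate block, 5489 genes were called over 12 arrays and 3088 over 8. The deviations of same-numbered wild type and E2f1 knockout livers correlated at 0.06, 0.196, 0.144 and 0.405 across genes. Since 1 of these is under 0.1 and no label pairs the mice, the slide was kept as an alternative and its counts stand beside the results it moves. The falls of mitotic genes were smaller with normexp, and the cause was not tested.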
